A study of Mus musculus with 2 samples.

Results

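The genes described here encode 10 enzymes and transporters that cells use against reactive oxygen species, named Gpx1, Cat, Prdx1, Srxn1, Txnrd1, Sod1, Sod2, Gclm, Slc7a11 and Nqo1. They were chosen by symbol from the 22886 genes of the deposited files. Each of the 10 symbols stood on 1 line. By their labels, the 2 RNA sequencing libraries hold aerobic tumor cells that were sorted by FACS from LLC (Lewis lung carcinoma) tumors, which grew subcutaneously in wild type C57BL/6 mice. The vehicle library came from mice with a vehicle injection and the clodronate library from mice injected with clodronate, a drug that is given in liposomes to deplete macrophages. The age of the mice, the dose, the number of animals in a library and the markers of the sort are not given in the sources used here. There was 1 library per condition, so the differences below have no replicate check and carry no p-value, and the treatment cannot be told apart from the animals, the sort or the preparation of each library. The comparison asks how the expression of these genes differed between the sorted cells of both treatments.

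Superoxide is converted to hydrogen peroxide by superoxide dismutases, and the peroxide is then removed by catalase, by glutathione peroxidases and by peroxiredoxins. Glutathione peroxidases draw on glutathione, whose synthesis is limited by cystine import and by glutamate-cysteine ligase, whereas peroxiredoxins draw on thioredoxin, which thioredoxin reductase keeps reduced with NADPH. Many of these genes are known targets of the transcription factor Nrf2, which binds antioxidant response elements together with small Maf proteins and which Keap1 marks for degradation in resting cells. In macrophages, which make superoxide with the phagocyte NADPH oxidase, the same enzymes limit damage to the cell itself.

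The labels were compared with marker genes. Levels are given in RPKM, which counts the reads of a gene per kilobase of transcript and relative to all mapped reads. Macrophage genes, 16 in number, each reached 10 RPKM or more in both libraries, and their summed level was 34440 RPKM in the vehicle against 31448 RPKM in the clodronate library. They did not share a direction, with 8 of them higher and 8 lower in the clodronate library. The 8 epithelial genes summed to 16.9 and 10.97 RPKM, with Epcam, Krt19 and Cldn4 listed at 0 in both. Cdh1 had 6.14 and 6.44 RPKM, Krt8 had 3.67 and 1.33 RPKM, and Krt18 had 2.97 and 3.19 RPKM. Krt7 and Cldn7 were above 0 in the vehicle library only. These low levels do not settle the label of aerobic tumor cells, and no list of LLC markers was used. The 6 erythroid genes analysed summed to 1.44 and 1.86 RPKM, with Hba-a2, Alas2, Slc4a1 and Gata1 listed at 0 in both. The 10 neutrophil genes found summed to 19.7 and 26.7 RPKM, with 7 of them, S100a9 and Mpo included, listed at 0 in both. Most of this sum was S100a8, with 12.7 and 23.1 RPKM, whereas Cxcr2 and Mmp8 were lower in the clodronate library. The 10 T and NK cell genes summed to 11.2 and 9.81 RPKM, with Cd3e, Cd3g, Ncr1 and Gzma listed at 0 in both. Cd4, with 10.3 and 7.72 RPKM, made up most of that sum. Whether a listed 0 means absence was not tested. The 10 fibroblast genes summed to 158 RPKM in the vehicle against 78.5 RPKM in the clodronate library, with none of them at 0 in both. Most of this sum came from Dcn, with 77.3 and 28.4 RPKM, and Col3a1, with 62.1 and 34.4 RPKM. Of the 8 that averaged 1 RPKM or more, 2 were higher in the clodronate library, Col1a1 and Acta2, and 6 were lower. The part of these fibroblast genes in the results below was not tested. In such bulk libraries, fewer cells of a type and less RNA per cell cannot be told apart. Of the marker lists, that of macrophages had by far the highest sum in both libraries. The levels below therefore cannot be read as those of LLC cells alone, and the part of macrophage RNA in them was not tested.

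The depth of the libraries was read from their low values. Where the authors counted whole reads, the RPKM of a locus times its effective length is a whole multiple of what 1 read is worth. With an effective length of 200 nt less than the transcript, most low values of both libraries fell near such steps. The 200 nt and the value of 1 read were chosen to put the largest number of low values at 1 read. The step at 1 read is therefore partly a result of that choice. In the vehicle library 68.2% of 513 loci with up to 5 reads lay within 0.05 of a whole number of reads, and in the clodronate library 67.9% of 964 loci did. The steps correspond to about 13800000 reads in the vehicle and 11200000 reads in the clodronate library. The reads behind each gene below are estimates of this kind, and the 95% intervals of a ratio are exact binomial intervals on these reads that cover counting error only. Both take transcript lengths from GENCODE M21, which may differ from the lengths the authors used.

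**Figure D1:**
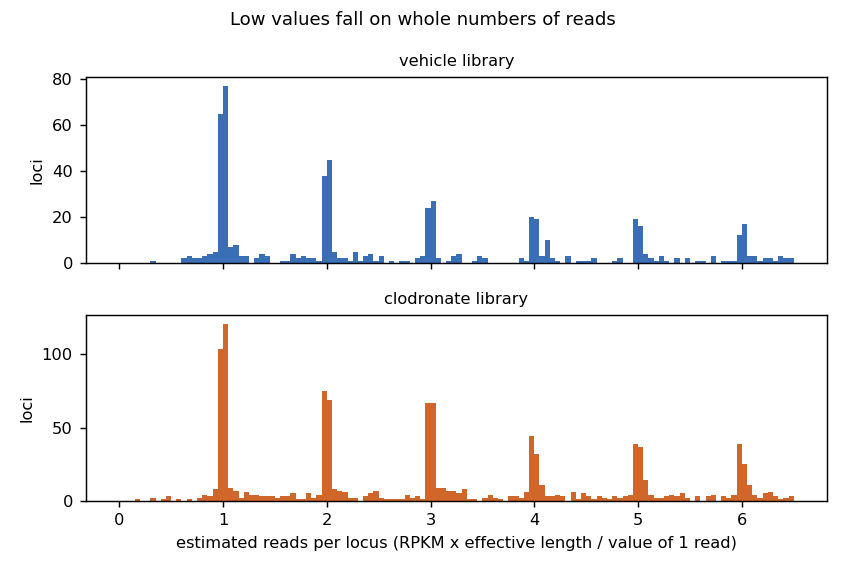
Number of loci (y axis) against the estimated number of reads per locus (x axis, RPKM times effective length over the value of 1 read) for the vehicle library and the clodronate library. The bars stand in narrow peaks at whole numbers of reads, with 68.2% and 67.9% of the loci within 0.05 of one, which is the basis of the estimated depths of 13800000 and 11200000 reads.

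The levels of the 10 genes spread over more than 3 orders of magnitude in both libraries. Gpx1 stood highest in both libraries and Nqo1 lowest, 1244 times below Gpx1 in the vehicle library. Gpx1 accounted for 61.4% of the summed RPKM of the 10 genes in the vehicle and 70.1% in the clodronate library. Prdx1 and Sod1 followed, next to each other, then Txnrd1, Cat, Srxn1, Sod2 and Gclm between 14.4 and 51.4 RPKM, then Slc7a11. The order was the same in both libraries, but without replicates the close neighbours Prdx1 and Sod1, and Txnrd1 and Cat in the vehicle library, cannot be ranked firmly. Genes were kept for the comparison where the average of both libraries was 1 RPKM or more, which held for 10982 genes, 9 of the 10 described among them, and not for Nqo1.

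**Figure D2:**
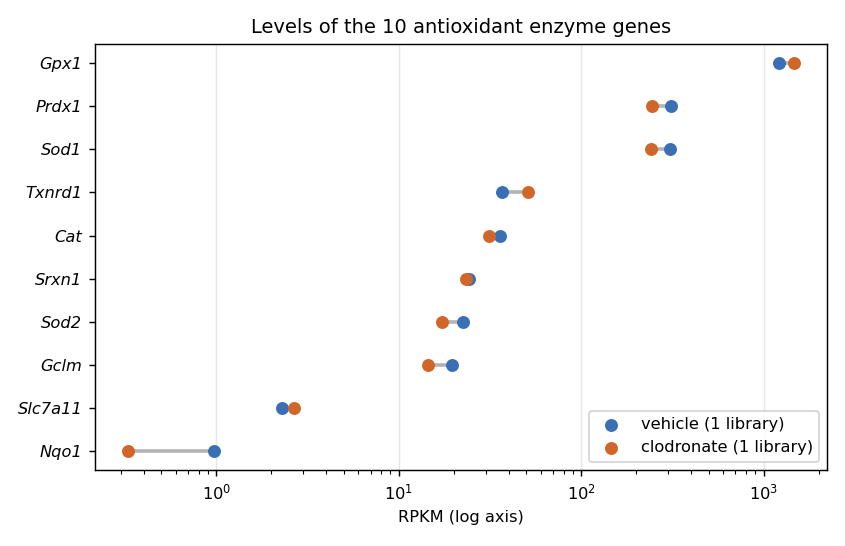
RPKM levels (x axis, logarithmic) of the 10 genes (y axis) in the vehicle and the clodronate library, 1 point per library. Gpx1 lies at 1204 and 1467 RPKM, Prdx1 and Sod1 between 241 and 310 RPKM, and Nqo1 below 1 RPKM in both.

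Between the libraries the 9 genes kept differed by less than 1.5-fold on the log2 scale used here, and Nqo1, which rests on few reads, is described last of the 10. This log2 ratio is that of clodronate RPKM + 1 over vehicle RPKM + 1, a scale that understates the difference of low genes. None of the 9 genes kept was 2-fold higher or 2-fold lower, against 6.95% and 6.77% of all genes kept. At 1.5-fold the count was again 0 in each direction, against 16.6% and 16.3% of all genes kept, and at 3-fold it was 0 against 2.86% and 2.32%. The median log2 ratio of the 9 genes was -0.20, that of all genes kept 0.019, and the middle 50% of all genes kept ran from -0.38 to 0.40. Of the 10 genes, 3 were higher in the clodronate library, namely Txnrd1, Gpx1 and Slc7a11, and 7 were lower. Among all genes kept, 51.6% were higher and 48.4% lower. For 8 of the 10 genes the counting interval of the ratio did not span 1, and for Srxn1 and Slc7a11 it did. The share of all genes kept with such an interval was not computed, so this count sets the 10 genes apart from no others. After the correction for base composition and length described below, the log2 ratios of Prdx1, Sod1, Gclm and Gpx1 lay outside their intervals. With both libraries scaled to the same upper quartile, those of Gpx1, at 0.22, and Prdx1, at -0.41, also lay outside them.

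**Figure D3:**
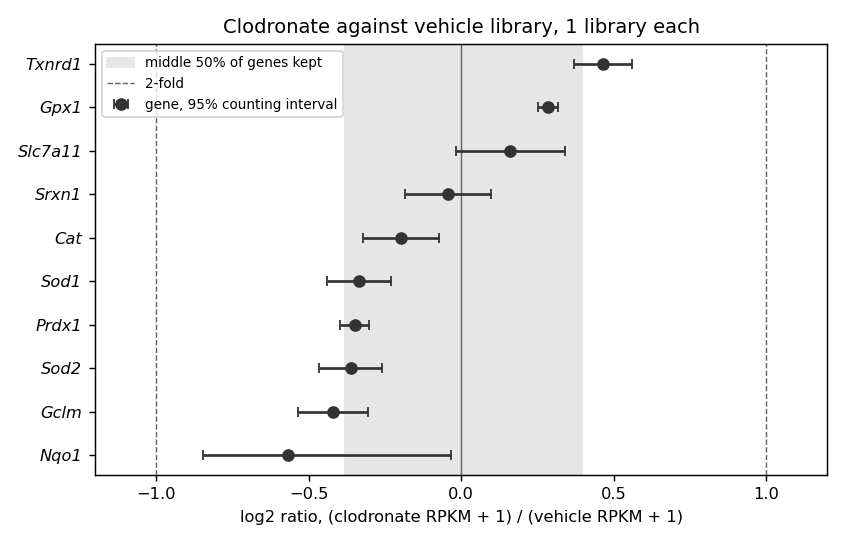
Log2 ratio of clodronate over vehicle RPKM with a pseudocount of 1 (x axis) for the 10 genes (y axis), with bars for the 95% counting interval from estimated reads, a grey band for the middle 50% of all genes kept and dashed lines at 2-fold. All 10 points lie inside the 2-fold lines, between -0.57 for Nqo1 and 0.46 for Txnrd1.

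Gpx1 encodes the cytosolic glutathione peroxidase, a selenoprotein that reduces hydrogen peroxide with glutathione. It lies on chromosome 9 of mm9 from 108241410 to 108242673. Its level was 1204 RPKM in the vehicle against 1467 RPKM in the clodronate library, within the top 0.692% and 0.528% of the genes kept. The clodronate value was 1.22 times the vehicle value (95% interval 1.19 to 1.25), with a log2 ratio of 0.28, from about 14454 and 14369 reads. Among all genes kept, 61.5% had a larger absolute log2 ratio, so that the difference of this abundant gene was precise in counting but modest in size.

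Txnrd1 encodes the cytosolic thioredoxin reductase, which is a selenoprotein too. It lies on chromosome 10 of mm9 from 82296695 to 82360469, and its line merges 4 RefSeq transcripts. Its level was 37.0 RPKM in the vehicle against 51.4 RPKM in the clodronate library, which is 1.39 times as high (95% interval 1.30 to 1.49), with a log2 ratio of 0.46. Among all genes kept, 42.6% lay farther from 0. The locus of Eid3, with 1.91 RPKM in the vehicle against 7.83 RPKM in the clodronate library, overlaps that of Txnrd1, and the part of reads from Eid3 in the value of Txnrd1 was not tested.

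Of the 10 genes these are the 2 in which GENCODE M21 annotates a selenocysteine codon, a TGA inside the reading frame that is read as selenocysteine in place of a stop. Both were higher in the clodronate library. The codon is shown in capitals with 12 bases on either side, since it is what Gpx1 and Txnrd1 share beyond their role, from GRCm38, plus strand. For Gpx1 the codon is at chr9:108339451-108339453 and for Txnrd1 at chr10:82896037-82896039.
Gpx1: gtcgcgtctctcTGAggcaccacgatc
Txnrd1: cagtctggctgcTGAggttaagcccca

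Other genes of selenoproteins and of their synthesis had both directions. Of 18 such genes, all of them kept, 2 were 2-fold higher and 2 were 2-fold lower, against 6.95% and 6.77% of all genes kept. The median log2 ratio of the 18 was 0.0028. The higher ones were Pstk, the kinase that acts on seryl-tRNA for selenocysteine, listed at 0 in the vehicle and at 2.98 RPKM in the clodronate library, and Eefsec, the elongation factor for selenocysteine, with 2.08 and 7.0 RPKM. The lower ones were Selenok, a protein of the endoplasmic reticulum, with 56.3 and 19.1 RPKM, and Txnrd3, a thioredoxin reductase of testis, with 3.56 and 1.25 RPKM. Selenop, the secreted selenium carrier, stood at 920 RPKM in the vehicle against 931 RPKM in the clodronate library, and Gpx4, which reduces lipid peroxides, had 159.6 and 156 RPKM, so that both of these abundant selenoprotein genes had nearly equal values.

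Catalase, encoded by Cat, breaks down hydrogen peroxide in peroxisomes. It lies on chromosome 2 of mm9 from 103294060 to 103325310. Its level was 35.8 RPKM in the vehicle against 31.1 RPKM in the clodronate library, a ratio of 0.869 (95% interval 0.795 to 0.9499) and a log2 ratio of -0.20. The gene was therefore lower in the clodronate library by less than most genes differed, since 72.8% of all genes kept had a larger absolute log2 ratio.

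Prdx1 encodes peroxiredoxin 1, an abundant cytosolic peroxidase that thioredoxin reduces, and lies on chromosome 4 of mm9 from 116357569 to 116372605. Its level was 309.8 RPKM in the vehicle against 243 RPKM in the clodronate library. The ratio was 0.784 (95% interval 0.758 to 0.811), the log2 ratio -0.35, and 54.0% of all genes kept lay farther from 0. The locus of AV051173, with 1.03 RPKM in the vehicle against 1.06 RPKM in the clodronate library, overlaps it.

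Srxn1 encodes sulfiredoxin, which repairs peroxiredoxins that peroxide has over-oxidized. It lies on chromosome 2 of mm9 from 151931259 to 151937112. Its levels were close to equal, with 24.1 RPKM in the vehicle against 23.4 RPKM in the clodronate library, a ratio of 0.969 whose 95% interval, 0.876 to 1.07, spans 1. Prdx1 stood 12.8 times above Srxn1 in the vehicle and 10.4 times above it in the clodronate library.

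The remaining genes of the thioredoxin and peroxiredoxin system were found in both directions. Of 16 genes, all kept, 0 were 2-fold higher and 1, Txnrd3, was 2-fold lower, and the median log2 ratio was -0.032. Among all genes kept these shares were 6.95% and 6.77%. At 1.5-fold, 1 was higher and 4 were lower, against 16.6% and 16.3% of all genes kept. Thioredoxin itself, Txn1, stood at 149 RPKM in the vehicle against 167 RPKM in the clodronate library, and the mitochondrial Txn2 had 46.4 and 64.8 RPKM. The peroxiredoxins did not share a direction. Prdx5 had 227 and 269.7 RPKM, Prdx2 had 120.1 and 117 RPKM, and Prdx6 had 37.9 RPKM in both, whereas the mitochondrial Prdx3 had 48.1 and 27.1 RPKM and the endoplasmic reticulum enzyme Prdx4 had 71.5 and 38.6 RPKM. Prdx3 and Prdx4, with log2 ratios of -0.81 and -0.87, were thus farther below their vehicle levels than Prdx1. Sesn1, a stress-induced regulator of peroxiredoxin repair, had 7.48 and 15.5 RPKM.

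Both superoxide dismutases were lower in the clodronate library, with counting intervals that overlap. Sod1, the cytosolic enzyme that uses copper and zinc, lies on chromosome 16 of mm9 from 90220986 to 90226569 and stood at 305 RPKM in the vehicle against 241 RPKM in the clodronate library. Its ratio was 0.792 (95% interval 0.736 to 0.853), with a log2 ratio of -0.34. Sod2, the manganese enzyme of mitochondria, lies on chromosome 17 of mm9 from 13200704 to 13210985 and stood at 22.5 RPKM in the vehicle against 17.3 RPKM in the clodronate library. Its ratio was 0.768 (95% interval 0.711 to 0.828), with a log2 ratio of -0.36. Per length, Sod1 stood 13.5 times above Sod2 in the vehicle and 13.9 times in the clodronate library. After the correction for base composition and length described below, the log2 ratios were -0.12 for Sod1 and -0.28 for Sod2.

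A list of 6 genes was set beside these enzymes, namely Sod3, Ccs, Atox1, Slc31a1 and the mitochondrial carriers Slc25a37 and Slc25a39. Of these, 5 were kept, 0 were 2-fold higher and 1 was 2-fold lower, against 6.95% and 6.77% of all genes kept. The median log2 ratio was -0.15, which is the value of Slc25a37. Slc25a37 had 24.0 RPKM in the vehicle against 21.5 RPKM in the clodronate library, and Slc25a39 had 38.6 and 49.2 RPKM. Ccs, the chaperone that loads copper into Sod1, was the lower one, with 8.67 RPKM in the vehicle against 3.75 RPKM in the clodronate library, and its log2 ratio went from -1.03 to -0.96, under 2-fold, with the same correction. Atox1, a copper chaperone for the secretory pathway, had 1039 and 618 RPKM, and the copper importer Slc31a1 had 25.1 and 25.9 RPKM. Sod3, the secreted dismutase, was listed at 0 in the vehicle and at 0.0965 RPKM in the clodronate library.

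Slc7a11 encodes the cystine importer xCT, which brings in the building block for glutathione, and lies on chromosome 3 of mm9 from 50168857 to 50247535. Its level was low, with 2.29 RPKM in the vehicle against 2.68 RPKM in the clodronate library, and it rested on about 285 and 271 reads over a long transcript. The ratio of 1.17 had a 95% interval from 0.983 to 1.38, which spans 1. Slc3a2, the partner chain of xCT and of other amino acid transporters, had 148 and 155 RPKM.

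Gclm encodes the modifier subunit of glutamate-cysteine ligase and lies on chromosome 3 of mm9 from 121948509 to 121969566. It stood at 19.6 RPKM in the vehicle against 14.4 RPKM in the clodronate library, a ratio of 0.734 (95% interval 0.675 to 0.800) and a log2 ratio of -0.42, which was -0.25 after the correction for base composition and length. The catalytic subunit Gclc had 24.8 and 24.3 RPKM, so that Gclc stood 1.27 times above Gclm in the vehicle and 1.69 times above it in the clodronate library.

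Among 20 genes of glutathione synthesis and use, 16 were kept, and the median log2 ratio was -0.029. Of these, 2 were 2-fold higher and 2 were 2-fold lower, against 6.95% and 6.77% of all genes kept. The higher ones were Gsr, the reductase that regenerates glutathione, with 5.14 RPKM in the vehicle against 12.7 RPKM in the clodronate library, and Gstp1, a glutathione transferase, with 4.29 and 18.4 RPKM. Gstp1 has a near-identical neighbour gene, Gstp2, and the reads of both could be split, so that its value is uncertain. The lower ones were Mgst1, a glutathione transferase of membranes, with 111 and 50.2 RPKM and a log2 ratio of -1.13 that went to -0.93, under 2-fold, with the same correction, and Gpx8, a peroxidase of the endoplasmic reticulum, with 3.12 and 0.109 RPKM.

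Nqo1 encodes a quinone reductase that is widely used as a readout of Nrf2, and lies on chromosome 8 of mm9 from 109912124 to 109927105. It was the lowest of the 10 genes, with 0.968 RPKM in the vehicle against 0.330 RPKM in the clodronate library. These values correspond to about 18 reads in the vehicle and 5 reads in the clodronate library, a ratio of 0.340 with a 95% interval from 0.0988 to 0.951. The log2 ratio was -0.57 with a pseudocount of 1 and -1.31 with a pseudocount of 0.1, and the depth does not fix the size of this difference.

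The upstream genes of the pathway were found in both directions. Of 12 regulators of Nrf2, all kept, 0 were 2-fold higher and 1 was 2-fold lower, against 6.95% and 6.77% of all genes kept. The median log2 ratio of the 12 was -0.12. Nfe2l2, which encodes Nrf2, stood at 148 RPKM in the vehicle against 106 RPKM in the clodronate library, and Keap1, its inhibitor, had 6.45 and 9.50 RPKM. Cul3, the scaffold of the ubiquitin ligase that Keap1 guides, had 46.0 and 33.5 RPKM. Among the small Maf partners Mafk had 18.5 and 37.4 RPKM, a ratio of 2.02 that the pseudocount of 1 brings to a log2 ratio of 0.98, under the limit of 2-fold, and that of 0.1 to 1.01, past it, whereas Maff had 21.4 and 13.6 RPKM. Bach1, a repressor at the same elements, had 42.7 and 40.3 RPKM, and Sqstm1, which binds Keap1, had 313 and 279 RPKM. The lower one was Btrc, a ubiquitin ligase adaptor, with 6.10 and 2.29 RPKM.

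Other targets of Nrf2 were also spread over both directions. Of 20 genes, 19 were kept, 1 was 2-fold higher and 1 was 2-fold lower, against 6.95% and 6.77% of all genes kept. The median log2 ratio of the 19 was 0.087. The higher one was Osgin1, an oxidative stress induced growth inhibitor, with 4.91 RPKM in the vehicle against 12.8 RPKM in the clodronate library, and the lower one was Mgst1. Both fell short of 2-fold after the correction for base composition and length, with log2 ratios of 0.99 for Osgin1 and -0.93 for Mgst1. With that correction 1 gene of this list was still 2-fold higher, which was therefore not Osgin1. Hmox1, the heme oxygenase that is also controlled by Bach1, had 396 and 789 RPKM. Its log2 ratio before the correction was 0.99, just under 2-fold, and its corrected value was not recorded. The NADPH-producing enzymes of the pentose phosphate pathway had 45.6 and 70.6 RPKM for G6pdx and 100.3 and 115 RPKM for Pgd. The ferritin chains were at the top of the list, with 4387 and 4766 RPKM for Ftl1 and 2396 and 2142 RPKM for Fth1.

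Taken over all 6 lists, which share some genes, 84 different genes were found and 78 kept. Of these, 5 were 2-fold higher and 6 were 2-fold lower, or 6.41% and 7.69%, close to the 6.95% and 6.77% of all genes kept. The median log2 ratio of the 78 genes was -0.019.

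**Figure D4:**
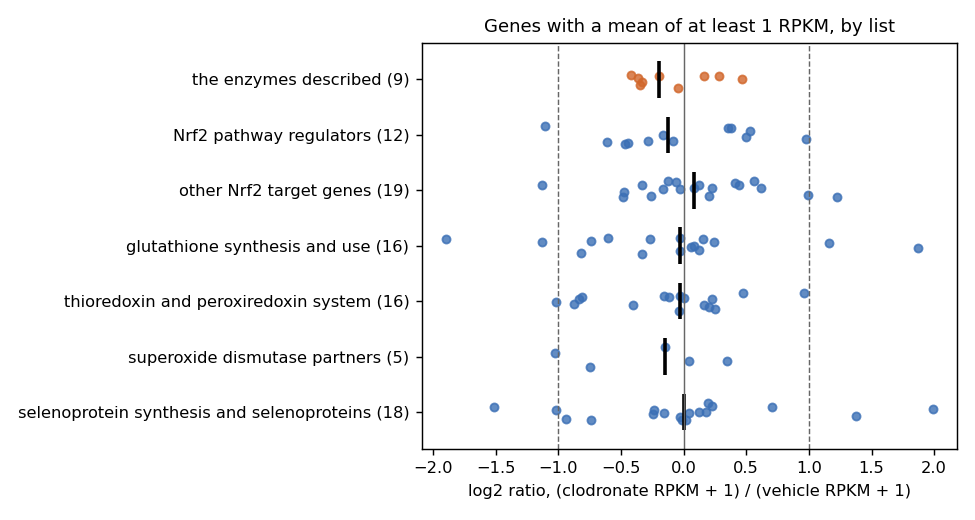
Log2 ratio of clodronate over vehicle RPKM with a pseudocount of 1 (x axis) for every gene with a mean of at least 1 RPKM, by list (y axis, number of genes in brackets), with a black bar at the median of each list and dashed lines at 2-fold. The 9 enzymes described first stay within the dashed lines, and the 6 other lists have medians between -0.15 and 0.087 with 1 to 4 genes each beyond the lines.

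Ratios in these libraries moved with base composition and length. The median log2 ratio was -0.24 in the lowest of 10 bins of transcript GC content and 0.29 in the highest, and -0.19 in the shortest of 10 bins of length. Prdx1, Gclm and Sod2 have GC contents of 42.3%, 42.1% and 42.2%, in the lowest 2 bins, and Sod1, at 641 nt, lies in the shortest bin. With the median of each bin of GC content and then of length subtracted, the log2 ratio was -0.13 for Prdx1, -0.12 for Sod1, -0.25 for Gclm and -0.28 for Sod2. The values of Prdx1, Sod1 and Gclm thus moved more than 1.5 times towards 0, and all 4 stayed below 0. Txnrd1 had a log2 ratio of 0.43 and Gpx1 of 0.35 after the same step, Slc7a11 moved from 0.16 to 0.28 and Srxn1 from -0.043 to -0.14. Each of the 9 genes kept had the same sign of its log2 ratio in every setting tried that gave it a value. Nqo1, whose ratio was computed outside the filter on low values, was below 0 with both pseudocounts.

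The start regions of the genes were searched for the core of the antioxidant response element, since most of the 10 genes are known as Nrf2 targets. The core, TGACNNNGC on either strand, was sought in RefSeq windows of GRCm38.p6 from 250 bases before to 50 bases after each transcript start. All 10 genes had a window, and 5 of them held the core, namely Prdx1, Txnrd1, Gclm, Srxn1 and Sod1, against 14% of the 27025 genes with a window. Txnrd1, which has several windows and so more room for a match, held it in 1 of them. Since most of the 10 are known Nrf2 targets, a share above that of all genes is no independent result. Base composition also differed between the windows, from 44.7% GC in Slc7a11 to 79.7% in Gclm, with a median of 52.7% over all windows. Its part in the matches was not tested. The matches are shown 5′ to 3′ on the strand of the gene with the core in capitals, and in each of them the core is on the opposite strand. They lie at chr4:116685456-116685484 for Prdx1, chr10:82859104-82859132 for Txnrd1, chr3:122245413-122245441 for Gclm, chr2:152105542-152105570 for Srxn1 and chr16:90220696-90220724 for Sod1, all on the plus strand. The core starts 133 bases before the transcript start in Prdx1, 92 in Txnrd1, 134 in Gclm and 56 in Sod1, and at base 29 of the transcript in Srxn1. Prdx1 was the only one of the 10 to hold the stricter TGACTCAGC, found in 0.503% of genes.
Prdx1: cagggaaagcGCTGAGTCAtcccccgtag
Txnrd1: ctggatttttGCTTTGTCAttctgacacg
Gclm: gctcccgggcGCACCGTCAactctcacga
Srxn1: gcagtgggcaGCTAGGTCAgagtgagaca
Sod1: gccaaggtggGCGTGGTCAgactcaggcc

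The 5 genes with the core had both directions between the libraries, with Txnrd1 higher, Prdx1, Gclm and Sod1 lower and Srxn1 near equal levels. The other 5 genes, Gpx1, Cat, Sod2, Slc7a11 and Nqo1, had no match in these windows, which says nothing of elements farther away.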

How the data were processed

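The authors deposited 1 table of RPKM values per library for the same 23170 gene loci, which carry Cufflinks identifiers, RefSeq accessions, symbols and mm9 coordinates. The submitters' processing notes name mm9, CASAVA 1.8.2, TopHat2 2.0.9, Bowtie 0.12.9, Cufflinks 2.2.1 and Cuffdiff, without their roles. The paper given for the series describes no such experiment. The labels also carry a culture protocol for EML cells, at odds with the tumor named elsewhere in them. The deposited RPKM are not counts, so no count model was used.

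Lines of a symbol were summed, and 26 symbols that had turned into numbers were looked up by accession. Log2 ratios used a pseudocount of 1, and genes averaging 1 RPKM or more were kept. Called means at least 2-fold. Estimated reads used GENCODE M21 transcript lengths, and loci over 600 nt with 1 accession and 1 matching transcript set the value of 1 read, as that with most low values within 2% of it. For Txnrd1 the median length of its transcripts was used. The genes described, the 6 gene lists and the marker lists were chosen with earlier results of these data known. All 10 genes were named, and from the lists those with the largest log2 ratios in each direction, the highest RPKM or a central role in the pathway. No genes of like pattern were named, since 2 libraries give 1 ratio. Values of 1 gene of the marker lists are not reported here. Coordinates of mm9 and GRCm38 were not combined. Simulated data were used to test the 2-fold calls, the value of 1 read and the correction for GC content, and the other steps were not tested in this way. Python 3.11.15, numpy 2.4.6, pandas 2.3.3, scipy 1.17.1 and matplotlib 3.10.9 were used.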

Additional observations from a re-analysis of the deposited data

How the results depend on the processing

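No paired analysis was possible because there is 1 library per treatment, and no library could be left out. The settings tried were no filter, an average of 5 RPKM or more, a pseudocount of 0.1, centring, upper-quartile scaling, the highest line of each symbol, a correction for GC content and length, other folds and a stricter motif. None moved a gene of the 9 kept past 2-fold. The median log2 ratio of the enzymes lay between -0.27 and -0.13. Among all genes kept, 763 were 2-fold higher and 744 lower; at 5 RPKM or more these counts were 346 and 356, at 1.5-fold 1828 and 1789, and at 3-fold 314 and 255, fewer or more by construction. At 5 RPKM or more the median log2 ratio changed sign to 0.017 for glutathione genes and to -0.020 for selenoprotein genes, and the 2-fold counts became 0 lower for Nrf2 regulators, 1 lower for glutathione genes, 0 lower for the thioredoxin system and 0 higher and 1 lower for selenoprotein genes, since Btrc, Gpx8, Txnrd3, Eefsec and Pstk average less. The selenoprotein median was also below 0 with centring (-0.017) and with upper-quartile scaling (-0.059). With a pseudocount of 0.1, which widens the ratios of low genes, 1 Nrf2 regulator was 2-fold higher, and in the thioredoxin system 1 gene was higher and 2 were lower. Corrected for GC content and length, the thioredoxin median was 0.025. With this correction 1 glutathione gene, 0 other Nrf2 targets and 0 superoxide dismutase partners were 2-fold lower, as Mgst1 and Ccs were no longer past the limit. On the higher side Osgin1 was no longer past it either, but the count of other Nrf2 targets stayed at 1, so another gene of that list had passed it. The cause was not tested. The stricter motif was found in 1 of the 10 genes in place of 5. Depth limits the values of Nqo1 and, less so, of Slc7a11.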
